A study of Homo sapiens with 6 samples.

Results

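The FAM83 genes and FAM83H-AS1, a noncoding RNA transcribed head to head with FAM83H, were followed in RNA-Seq of cells labelled as A549, a human lung adenocarcinoma cell line. The members were the 9 rows of the count table named FAM83A to FAM83H and FAM83H-AS1, out of 40173 genes. The control group was transfected with a negative control siRNA (3 libraries) and the silenced group with an siRNA against FAM83H-AS1 (3 libraries). By the labels and the study's methods, all cells were of the same line, received a transfection and were harvested the day after it. Which of the siRNAs listed by the study was used for these libraries, and whether replicates came from separate cultures, is not stated in the sources used here, so that p-values measure only the spread between these libraries, which may be technical.

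FAM83 proteins share a conserved N-terminal domain, DUF1669, through which they bind kinases of the casein kinase 1 (CK1) family and bring them to particular places in the cell. FAM83A and FAM83B are known from epithelial cancers, where they act in signaling from EGFR to ERK, FAM83D brings CK1α to the mitotic spindle, FAM83F and FAM83G act in Wnt signaling, and FAM83H organizes keratin filaments and is mutated in a hereditary enamel defect. FAM83C and FAM83E are less well characterized.

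Library totals ranged from 9738291 to 17742643 counts. Control replicate 3, the deepest library, differed from its replicates further beyond counting noise than they did from each other. The chi-square per degree of freedom was 22.7 and 26.8, against 6.29 for the other control pair. RNA5-8SP6, a pseudogene of ribosomal RNA, made up 3.22% of control replicate 3. The part of depth and of this gene in these values was not tested. Of 9 epithelial and A549 markers, KRT8 and KRT18, the keratins of simple epithelia, were high, with 1863 ± 199 and 1316 ± 75.3 CPM in the control cells (counts scaled to the normalized library size, SD, n = 3). EPCAM, also on this list, was low, at 3.86 ± 0.328 CPM in the control cells (SD, n = 3). The aldehyde dehydrogenase ALDH1A1 had 0 counts in the 3 control libraries, the reductase AKR1B10 was at 0.843 ± 0.0752, and E-cadherin (CDH1) at 0.780 ± 0.0775 CPM (SD, n = 3 each). ALDH1A1 and AKR1B10 are known as abundant in A549 cells, so that these values go against the label. Other genes of the list that A549 cells are known to express were present, with NQO1 at 191 CPM, AKR1C1 at 96.3 CPM and ALDH3A1 at 11.5 CPM in the control cells, and 3 of the 9 markers were under 1 CPM. CDKN2A and MTAP, which lie in a homozygous deletion known in A549 cells and were looked up after other values had been seen, had between 521 and 955 counts and between 365 and 663 counts per library in the 6 libraries. The cells are therefore named below only by their group. The summed level of 12 markers of leukocytes, fibroblasts and endothelium was 155 to 178 CPM in the control and 258 to 298 CPM in the silenced libraries, most of it the lysosomal protein gene CD68 (130 ± 9.31 and 239 ± 14.7 CPM; SD, n = 3 each). The collagen gene COL1A1 was at 27.0 and 31.7 CPM and the endothelial cadherin CDH5 at 3.94 and 2.31 CPM (control and silenced means), and the fibroblast genes LUM and DCN were under 1 CPM but higher in every silenced library. PTPRC, CD3E and LYZ, markers of leukocytes, had 0 counts in all control libraries, and CD3E and LYZ also in all silenced libraries. The part of these markers in the results was not tested.

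In GENCODE 29 on GRCh38, FAM83H lies on the minus strand of chromosome 8 from 143723933 to 143733801. FAM83H-AS1 was matched to IQANK1, a gene that this annotation lists as protein coding. IQANK1 begins 338 bases away on the plus strand and extends from 143734140 to 143790644. This extent need not be that of the counted RNA. FAM83A is on the same chromosome, from 123178960 to 123210079. FAM83C (35285731 to 35292401) and FAM83D (38926312 to 38953106) are on chromosome 20, and the other members are each alone on their chromosome, with FAM83B on 6 from 54846771, FAM83E on 19 from 48600810, FAM83F on 22 from 39994949 and FAM83G on 17 from 18968789. The counts were made on GRCh37 by the submitters' processing notes, so that these positions serve only to show which genes neighbor each other.

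FAM83H-AS1, the target of the siRNA, was lower in every silenced library than in every control library. Its counts were 141, 185 and 292 in control replicates 1 to 3 and 47, 48 and 75 in silenced replicates 1 to 3. Scaled to the library, its level was 14.5, 16.0 and 17.3 CPM in the control and 4.59, 4.44 and 5.57 CPM in the silenced libraries, so that 30.6% of the control level remained. The log2 fold change was -1.70 (95% confidence interval -2.03 to -1.38, adjusted p = 7.99e-05 by edgeR). A gene is counted as called here when its adjusted p is under 0.05 and it changed more than 2-fold, which held for FAM83H-AS1 and for 2.14% of the 15250 genes tested (0.997% in the lower direction). FAM83H-AS1 was called in all 13 alternatives. The two-sided exact permutation test of its level gave p = 0.1, the smallest p for 3 libraries against 3.

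FAM83H, the keratin-organizing partner of the head-to-head pair, was the most abundant member by counts, with 2414, 2476 and 4151 counts in the control and 2160, 2058 and 2715 in the silenced libraries. Its level was 248, 214 and 245 CPM in the control and 211, 190 and 202 CPM in the silenced libraries. The silenced libraries lay below the control libraries without overlap, although the nearest libraries (214 and 211 CPM) were close. Groups lay apart in this way for 36.6% of all genes tested, and with the silenced libraries lower for 17.5%. The log2 fold change of -0.23 (95% confidence interval -0.40 to -0.06) missed the threshold (adjusted p = 0.068 by edgeR). The interval runs from 0.756 to 0.961 of the control level. With DESeq2 in place of edgeR the adjusted p was 0.0394. By edgeR it was 0.0365 with all genes of at least 1 count and 0.0425 without control replicate 2. With the replicate number as a block in the edgeR fit it was 0.0212, although the numbers were not taken as pairs.

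Within each library, the ratio of FAM83H-AS1 to FAM83H does not depend on library scaling. Per 100 FAM83H counts, the control libraries held 5.84, 7.47 and 7.03 counts of FAM83H-AS1 and the silenced libraries 2.18, 2.33 and 2.76. The groups did not overlap, and the log2 ratio was -3.89 ± 0.185 (SD, n = 3) in the control and -5.37 ± 0.177 (SD, n = 3) in the silenced cells. The difference of -1.48 was accompanied by an exact permutation p of 0.1, again the smallest possible, and it lay between -1.59 and -1.41 with any 1 library left out. The antisense RNA was thus lower relative to FAM83H as well as to the whole library.

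**Figure D1:**
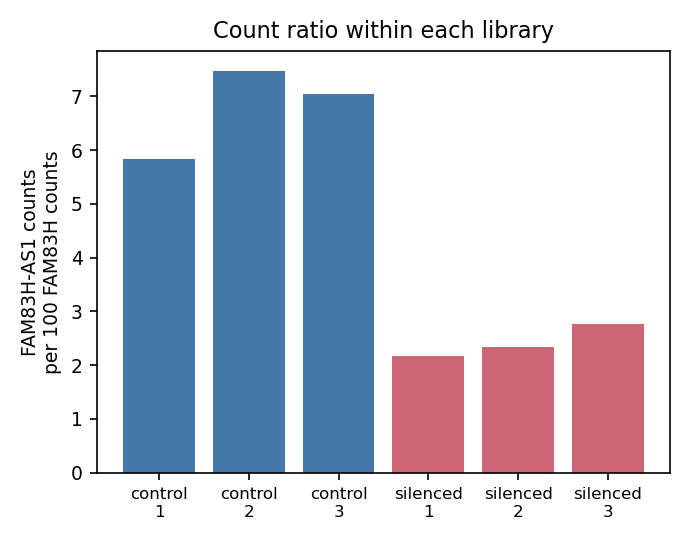
Counts of FAM83H-AS1 per 100 counts of FAM83H (vertical axis) in each of the 6 libraries, with control libraries in blue and silenced libraries in red. The control libraries are between 5.84 and 7.47 and the silenced libraries between 2.18 and 2.76.

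FAM83A, which acts in EGFR and ERK signaling, was higher after silencing. It had 51.6, 43.7 and 48.8 CPM in the control and 61.7, 58.3 and 60.1 CPM in the silenced libraries, and every silenced library was above every control library. The group mean rose from 48.0 ± 4.01 to 60.0 ± 1.68 CPM (SD, n = 3 each), which is 125% of the control level and a log2 fold change of 0.32 (95% confidence interval 0.14 to 0.50, adjusted p = 0.022 by edgeR). Of all genes tested, 8.75% were higher at this threshold. The adjusted p was above 0.05 without control replicate 2 (0.0773), control replicate 3 (0.0516), silenced replicate 1 (0.0864) or silenced replicate 3 (0.0556). The log2 fold change stayed between 0.26 and 0.37 over all alternatives. FAM83A-AS1, an antisense RNA that overlaps FAM83A on the opposite strand, had 1 count in the 6 libraries together.

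FAM83B, the closest relative of FAM83A in function, had few counts, from 64 in control replicate 1 to 175 in control replicate 3. Its level was 6.58, 8.72 and 10.3 CPM in the control and 8.89, 8.05 and 8.55 CPM in the silenced libraries. All silenced libraries lay inside the range of the control libraries, which was the wider one. The log2 fold change was -0.03 (95% confidence interval -0.41 to 0.36, adjusted p = 0.939 by edgeR), and its sign was opposite with scaling by library size only (0.012), without control replicate 3 (0.14) and without silenced replicate 2 (0.0089). At this depth a change to 0.751 or 1.28 of the control level would still lie within the interval.

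FAM83D, the spindle protein, was at 82.0, 88.8 and 97.4 CPM in the control and 95.3, 95.2 and 94.3 CPM in the silenced libraries. The silenced libraries were close to each other (SD 0.567 CPM, n = 3) and within the control range (SD 7.69 CPM, n = 3). Its log2 fold change was 0.08 (95% confidence interval -0.09 to 0.26, adjusted p = 0.508 by edgeR).

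FAM83G, a partner of SMAD1 that acts in BMP and Wnt signaling, was at 56.6, 50.2 and 58.9 CPM in the control and 62.3, 49.9 and 63.3 CPM in the silenced libraries. Replicate 2 was the lowest library of both groups, and the groups overlapped. Its change on the log2 scale was 0.08 (95% confidence interval -0.14 to 0.31, adjusted p = 0.623 by edgeR). The sodium and glucose transporter family gene SLC5A10 overlaps FAM83G on the opposite strand and had between 4 and 16 counts per library, far fewer than the 540 to 997 of FAM83G, and was below the filter on low counts.

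**Figure D2:**
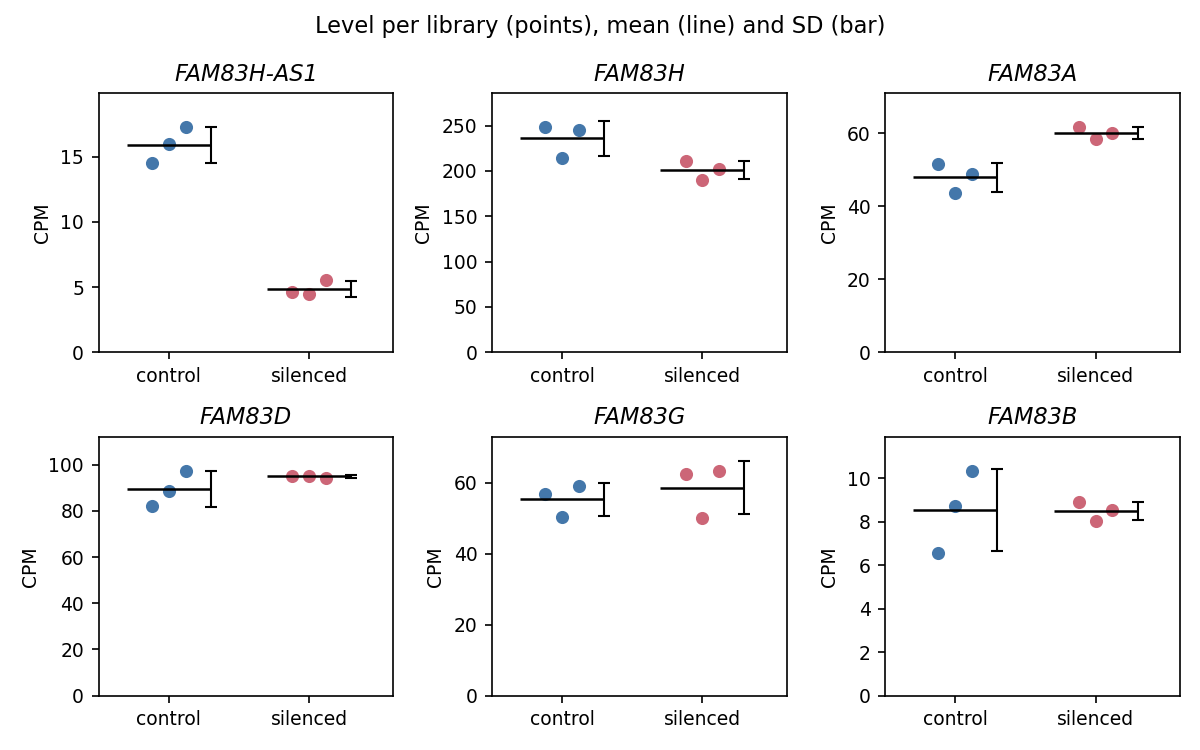
Level of the 6 members kept by the filter, in CPM on linear axes that start at 0, in each control (blue) and silenced (red) library. Horizontal lines are group means and bars are SDs over 3 libraries. The groups are apart for FAM83H-AS1 (15.9 and 4.87 CPM), FAM83H (236 and 201 CPM) and FAM83A (48.0 and 60.0 CPM), and overlap for FAM83D, FAM83G and FAM83B.

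FAM83C, FAM83E and FAM83F were below the filter and close to the limit of detection. FAM83C had 4, 4 and 3 counts in the control and 3, 4 and 7 in the silenced libraries. FAM83E had 8, 3 and 4 counts in the control and 1, 4 and 1 in the silenced libraries, and FAM83F, for which 2 libraries had no count, had 2, 0 and 1 in the control and 0, 4 and 4 in the silenced libraries. The groups overlapped for all of them. A count of 0 allows up to 3 counts, which is 0.259 CPM in control replicate 2 and 0.293 CPM in silenced replicate 1 and covers counting error only. When all genes with at least 1 count were fitted, the adjusted p by edgeR was 0.772 for FAM83C, 0.438 for FAM83E and 0.512 for FAM83F, so that differences in these genes were not detectable at this depth.

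Of the 8 FAM83 genes, then, 5 could be tested and 1, FAM83A, passed the threshold of 0.05 on the edgeR adjusted p, compared with 17.0% of all genes tested. The median log2 fold change of these 5 was 0.08, against -0.00 for all genes tested. No FAM83 gene passed the fold change of 2 as well, by edgeR or by DESeq2, at an adjusted or an unadjusted p. By DESeq2, 2 of them had an adjusted p under 0.05, FAM83A and FAM83H, and at an unadjusted p under 0.05 by edgeR there were also 2. The count was 0 without control replicate 3, without silenced replicate 1 and without silenced replicate 3.

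Levels can be compared between genes only per length, here as CPM per kilobase of all annotated exons in the control cells. FAM83H (41.7 ± 3.37, SD, n = 3) and FAM83D (36.1 ± 3.11, SD, n = 3) were the most abundant, higher than 91.1% and 89.5% of 13838 tested genes with a known length, and their control libraries overlapped. In the silenced libraries, FAM83D (38.1 to 38.5) was above FAM83H (33.7 to 37.3) without overlap. FAM83A (7.60 ± 0.634, SD, n = 3) and FAM83G (7.02 ± 0.577, SD, n = 3) followed, with FAM83A 4.75-fold below FAM83D, and overlapped as well. With the length of the longest transcript alone FAM83G (10.5) was above FAM83A (8.91), so that their order depends on the length used. FAM83H-AS1 (3.19 ± 0.278, SD, n = 3) and FAM83B (2.70 ± 0.597, SD, n = 3) overlapped in the control cells, and in the silenced cells FAM83H-AS1 was at 0.977 ± 0.124 (SD, n = 3), against 2.68 ± 0.134 (SD, n = 3) for FAM83B. The exons of FAM83H-AS1 as annotated for IQANK1 span 4982 bases. By its longest transcript of 2737 bases its control level was 5.81 ± 0.506 (SD, n = 3). This is above the highest control library of FAM83B (3.27), so that their overlap depends on the length used. FAM83E, FAM83C and FAM83F were at 0.174, 0.0990 and 0.00538, of which FAM83E lies 15.5-fold below FAM83B.

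**Figure D3:**
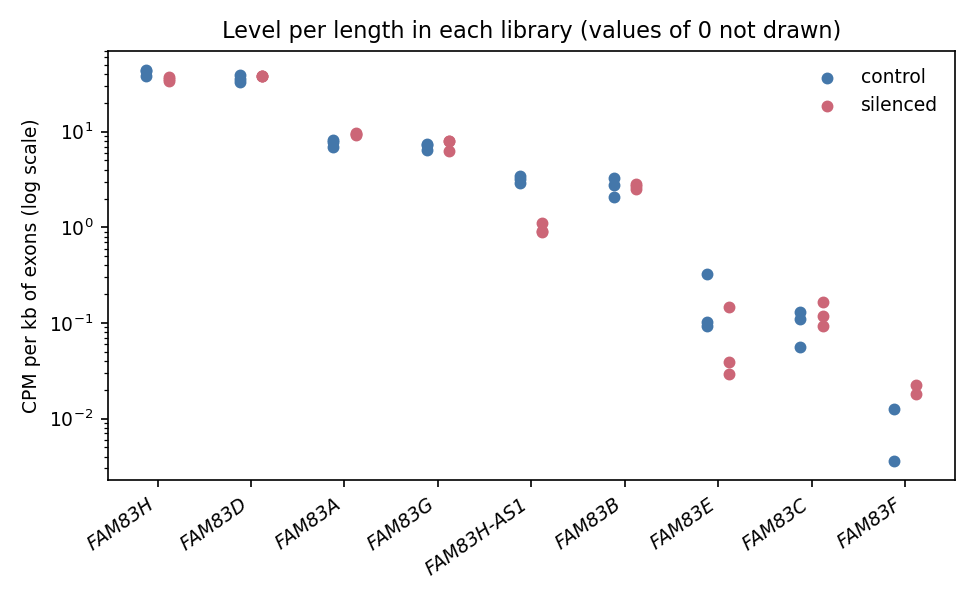
CPM per kilobase of exons (log axis) of all 9 members in each library, in the order of the control means, with control libraries in blue and silenced libraries in red and values of 0 not drawn. FAM83H and FAM83D lead, at 41.7 and 36.1 in the control cells, FAM83H-AS1 is the member whose groups are farthest apart among those kept by the filter, and FAM83E, FAM83C and FAM83F lie below all of these.

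Genes next to the members gave the local setting. SCRIB encodes a cell polarity protein and ends 275 bases beyond the gene annotated as IQANK1, on the opposite strand. Its distance from the counted FAM83H-AS1 transcript is not known from the sources used here. SCRIB was at 130, 108 and 115 CPM in the control and 79.9, 70.2 and 92.1 CPM in the silenced libraries. It fell by 0.54 on the log2 scale (95% confidence interval -0.77 to -0.31, adjusted p = 0.00692 by edgeR). Its adjusted p was under 0.05 with any 1 library left out. MAPK15, the kinase gene on the other side of FAM83H, had a log2 fold change of -0.23 (95% confidence interval -0.64 to 0.19, adjusted p = 0.442 by edgeR). Next to FAM83E, the sulfotransferase gene SULT2B1 rose from 2.11 ± 0.486 to 4.07 ± 0.874 CPM (SD, n = 3 each), with an adjusted p of 0.0329 by edgeR. It rests on 18 to 67 counts per library, and its adjusted p was above 0.05 with DESeq2 and without control replicate 1 or 2 or silenced replicate 1 or 3. TNRC6B next to FAM83F (-0.31), EIF6 (-0.17) and UQCC (-0.14) next to FAM83C, DHX35 next to FAM83D (-0.16), RPL18 next to FAM83E (-0.20), TBC1D31 next to FAM83A (0.27) and PRPSAP2 next to FAM83G (0.11) had adjusted p-values between 0.059 and 0.538 by edgeR. TNRC6B, the nearest to the threshold, passed it without control replicate 2, with all genes of at least 1 count and with the replicate block. HCRTR2, PPP1R16B, GRAP2, GRAP and KRASP1, and the microRNA genes MIR4663 and MIR4664, which lie next to or within members, were below the filter, as was SPACA4, which overlaps FAM83E.

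The genes of the CK1 family, to which the kinases bound by DUF1669 belong, were all expressed. Not every form need bind that domain. None had an adjusted p under 0.05 (0 of 7 by edgeR and by DESeq2, with 1 at an unadjusted p under 0.05). When all genes with at least 1 count were fitted, CSNK1G2 passed. CSNK1A1, which encodes CK1α, the kinase that FAM83 proteins bind in common, was at 128 ± 6.64 and 141 ± 10.7 CPM (SD, n = 3 each), with a log2 fold change of 0.15 (95% confidence interval -0.03 to 0.32). CSNK1D and CSNK1E had log2 fold changes of -0.11 and 0.13, and encode the δ and ε forms. For the γ forms, they were -0.09 (CSNK1G1), -0.25 (CSNK1G2) and 0.23 (CSNK1G3, the gene with an unadjusted p under 0.05). CSNK1A1L, a close copy of CSNK1A1 that could share reads with it, had a control level of 1.38 ± 0.0413 CPM (SD, n = 3) and a log2 fold change of 0.09. The median over the 7 genes was 0.09.

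**Figure D4:**
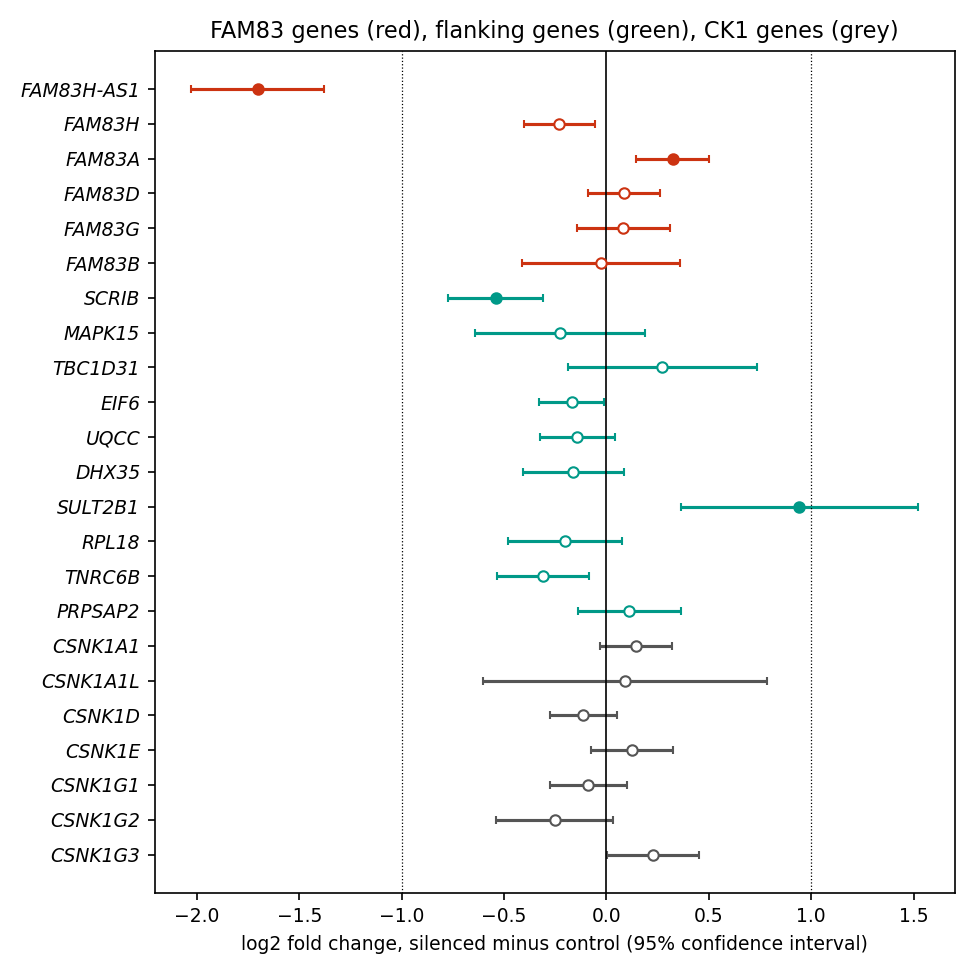
Log2 fold change (silenced minus control) with its 95% confidence interval for the 6 tested members (red), the tested genes next to members (green) and the CK1 genes (grey). Filled points have an adjusted p under 0.05 by edgeR, and dotted lines mark a fold change of 2. FAM83H-AS1 (-1.70) is the only gene drawn beyond a dotted line with its whole interval.

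In the list of keratins and FAM83H partners, KRT7, KRT18 and SCRIB were lower and KRT80 was higher. The list was chosen as background, and binding of its members to FAM83H was not tested. Of 10 tested genes of this list, 3 fell and 1 rose at the 0.05 threshold on the adjusted p, and 6 did not pass, while 8.27% of all genes tested fell and 8.75% rose. The median log2 fold change of the list was -0.27. KRT7 had 1277, 1461 and 1501 CPM in the control and 909, 978 and 974 CPM in the silenced libraries, and fell by 0.57 on the log2 scale (adjusted p = 0.00116 by edgeR). KRT18 fell by 0.43 on the log2 scale (adjusted p = 0.00266 by edgeR). KRT80 was higher in every silenced library, with 447, 472 and 528 CPM in the control and 750, 792 and 742 CPM in the silenced libraries, and rose by 0.66 (adjusted p = 4.62e-04 by edgeR). KRT8, the usual partner of KRT18, had a log2 fold change of -0.20 (95% confidence interval -0.38 to -0.02, adjusted p = 0.121 by edgeR), and SON, a nuclear speckle protein that binds FAM83H, one of 0.16 (adjusted p = 0.298 by edgeR). The count of 4 was the same with each library left out.

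Spindle and mitosis genes, among which FAM83D works, gave 1 higher and 1 lower gene at this threshold, of 20 tested, which is no more than the 17.0% of all genes that passed, and a median of -0.01. CENPF, a kinetochore protein, rose by 0.34 (adjusted p = 0.00766 by edgeR), and the mitotic kinase PLK1 fell by 0.24 (adjusted p = 0.0371 by edgeR), whose adjusted p was above 0.05 without control replicate 1 or 2 or any 1 silenced library, and with scaling by library size only. HMMR, the spindle protein that binds FAM83D, had 32.2 ± 4.79 and 38.9 ± 2.86 CPM (SD, n = 3 each). Its log2 fold change was 0.27 (95% confidence interval 0.03 to 0.51, adjusted p = 0.118 by edgeR). It passed without control replicate 2 and with the replicate block. The kinesin KIF22 was at -0.12 (adjusted p = 0.329 by edgeR).

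In the EGFR, RAS and ERK list, 6 genes rose and 2 fell of 21 tested at an adjusted p under 0.05, beside 8.75% and 8.27% of all genes tested, with a median of 0.14. FOSL1, a subunit of the transcription factor AP-1, had 81.8, 85.7 and 84.8 CPM in the control and 120, 107 and 114 CPM in the silenced libraries, so that the groups were well apart. It rose by 0.44 on the log2 scale (adjusted p = 0.00345 by edgeR) and passed with each library left out. EGFR (0.37), BRAF (0.31), ERBB2 (-0.31) and MAPK3 (-0.39), the gene of ERK1, also passed, with BRAF at an adjusted p of 0.0499 by edgeR, and each was above 0.05 without at least 1 library. BRAF was above it without any 1 library and with DESeq2, RLE factors or another filter. With 1 library left out the count of 8 fell to between 2 (without silenced replicate 1) and 5 (without silenced replicate 3), and it was 3 without control replicate 1, control replicate 3 or silenced replicate 2 and 4 without control replicate 2.

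In the Wnt and BMP list, 2 genes rose and 3 fell of 21 tested, a share near the 17.0% of all genes that passed in either direction, and the median was 0.02. The effector DVL2 fell by 0.35 (adjusted p = 0.00918 by edgeR) and passed with each library left out. The kinase GSK3A (-0.35) and the co-receptor LRP5 (-0.27) were the other lower genes, and the scaffold APC (0.35) and the transcription factor TCF7L2 (0.42) the higher ones, all with an adjusted p between 0.0106 and 0.027 by edgeR that rose above 0.05 without at least 1 library. The count of 5 was 3 without control replicate 1, control replicate 3 or silenced replicate 2 and 2 without silenced replicate 1. SMAD1, which FAM83G binds, had a log2 fold change of -0.08 (adjusted p = 0.718 by edgeR). None of the 5 lists held a tested gene with a fold change over 2.

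**Figure D5:**
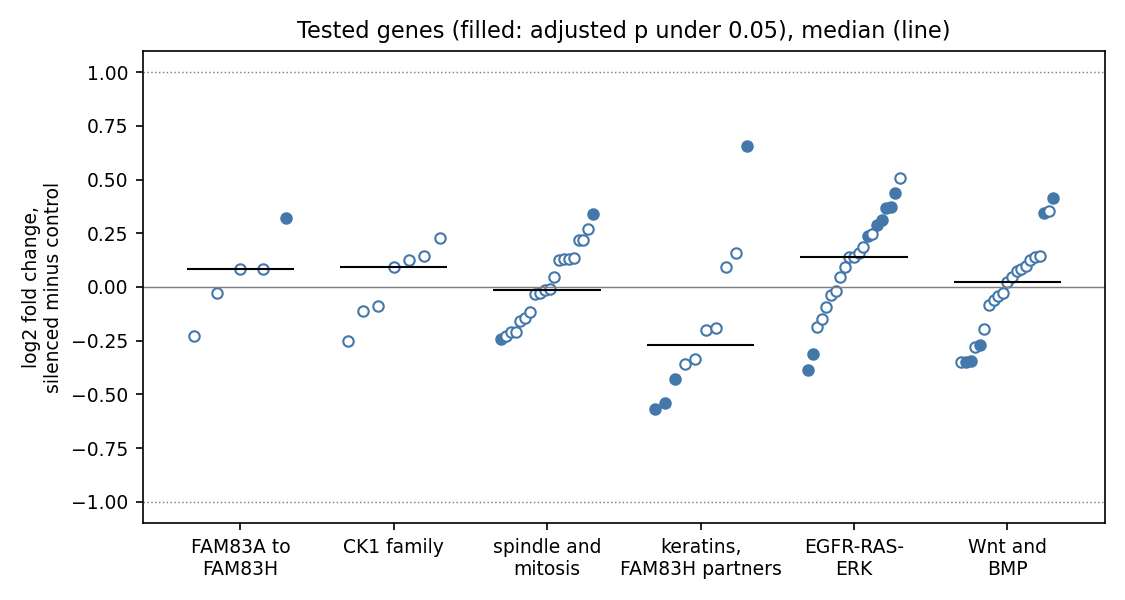
Log2 fold change (silenced minus control) of every tested gene of the FAM83 family and of the 5 lists, filled where the adjusted p is under 0.05 by edgeR, with the list's median as a line and dotted lines at a fold change of 2. Medians lie between -0.27 (keratins and FAM83H partners) and 0.14 (EGFR, RAS and ERK), and no point reaches a dotted line.

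The genes with the profile most like that of FAM83H-AS1 over the 6 libraries were found by the root mean square difference of log2 CPM, centered on the control mean, among 12128 other genes whose counts averaged at least 50. They were the phosphatase gene PTPN1 (difference 0.158), the proteasome subunit gene PSMC5 (0.174), the pseudogene HMGN1P38 (0.196), MAF1, a repressor of RNA polymerase III (0.258), and TMEM9B (0.264). All 5 were lower in every silenced library, and MAF1 is on chromosome 8, like FAM83H-AS1. PTPN1, the nearest, had 106, 104 and 104 CPM in the control and 35.7, 33.7 and 39.3 CPM in the silenced libraries. In PTPN1 and FAM83H-AS1, silenced replicate 3 was the highest and silenced replicate 2 the lowest of its group. PSMC5 and HMGN1P38 shared this order, but MAF1 was highest in silenced replicate 1 and TMEM9B in silenced replicate 2. From control replicate 1 to 3, FAM83H-AS1 rose while PTPN1 fell slightly. The genes were picked for a like profile, so that a shared order is no separate support. HMGN1P38 has a near-identical parent gene, so that its reads could belong to it. A like profile over 6 libraries in 2 groups is mostly a like decrease.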

How the data were processed

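RNA-Seq counts came from 6 Ion Proton libraries of total RNA. Reads were assigned to genes by the authors with MapSplice, on GRCh37 by the submitters' processing notes, and whole counts were deposited for 40173 genes without normalization. Strand and multiple matches are not given in the sources used here.

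The groups were compared with edgeR 4.0.16 in R 4.3.3 (filterByExpr, TMM, quasi-likelihood F test) with Benjamini-Hochberg adjustment over 15250 genes. Intervals are 95% and rest on standard errors derived from the F statistic (size of the log2 change over the root of F). The fit was tested on simulated data. CPM use TMM-scaled library sizes. Exon lengths and neighbors came from GENCODE 29, matched by symbol for 29642 genes and all 9 members.

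The members, gene lists, alternatives and rule for named genes were chosen with earlier results of these data known. The rule took all members, their neighbors, the CK1 genes, up to 6 passing genes per list and the 5 genes most like FAM83H-AS1. A gene of 1 list that met the rule is not reported here. Other genes of the lists (KRT8, SON, HMMR, KIF22, SMAD1), named for their role, were added after their values were seen. Alternatives were DESeq2 1.42.0, RLE factors, library size only, 2 other filters, the replicate block, an adjusted p under 0.01, each library left out, 0.5 added to counts in the ratio, and the longest transcript.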

Additional observations from a re-analysis of the deposited data

How the results depend on the processing

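FAM83H-AS1 was called in all 13 alternatives, with log2 fold changes from -1.82 to -1.64. The number of FAM83 genes with an adjusted p under 0.05, 1 as reported, was 2 with DESeq2, with all genes of at least 1 count and with the replicate block, 0 at an adjusted p under 0.01, and 0 to 1 with a library left out. FAM83B had a log2 fold change of 0.012 with library size only and -0.18 to 0.14 with a library left out. Genes of the 5 lists with an adjusted p under 0.05 numbered 19 as reported, 8 at an adjusted p under 0.01 and 9 to 15 with a library left out. By the longest transcript, control levels were 8.91 for FAM83A, 10.5 for FAM83G and 5.81 CPM per kilobase for FAM83H-AS1. The causes were not tested, beyond the stricter threshold and the fewer libraries themselves. Same-numbered libraries deviated together with r = 0.124, 0.149 and 0.067 across genes, so that the numbers were not taken as pairs, although 6 of 6 libraries correlated best with their own number. With the replicate block, the adjusted p was 0.0212 for FAM83H and 0.00977 for FAM83A, the family count 2 and that of the lists 24. Scaling moved the median of all genes by less than 0.1 on the log2 scale. The values of FAM83C, FAM83E and FAM83F rest on few counts.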
